A study of Mus musculus with 6 samples.

Results

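Genes of the proteasome were followed in MIN6 cells, an insulin-producing line from a mouse beta cell tumour, after knockdown with an siRNA to TDP-43, an RNA-binding protein whose gene is Tardbp. The members were the genes whose current symbol is Psma, Psmb, Psmc, Psmd, Psme, Psmf or Psmg followed by a number, without the immunoproteasome genes Psmb8 and Psmb9. There were 47 such genes among the 18193 genes that have a probe set of their own. They lay on 100 probe sets, and 26 of them had several. Of the 47 genes, 45 passed the filter on low signals. The brightest probe set of each, by its mean over the 6 arrays, stood for the gene. No measured difference entered this choice.

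The proteasome is the barrel-shaped protease that degrades ubiquitin-tagged proteins in the cytosol and nucleus. Its core particle is built of outer alpha rings, which gate entry, and inner beta rings, which hold the protease sites. A regulatory particle sits on the end of the barrel: its base, with a ring of ATPases, unfolds substrates, and its lid removes their ubiquitin. Subunits are made as separate transcripts from genes on many chromosomes, are assembled by dedicated chaperones and are used in fixed proportions. In insulin-producing cells, as in others, the particle clears misfolded and short-lived proteins.

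On 3 arrays the cells had received 100 pmol of an siRNA against TDP-43 by electroporation, and on 3 arrays 100 pmol of a control siRNA. All cells were the same line with no other genetic change named in the labels, and each array was hybridised with biotinylated cRNA made from 100 ng of total RNA. Nothing in the labels says that replicates came from separate cultures, so the p-values measure only the spread between these samples, which may be technical. An effect of lower TDP-43 and an effect of the siRNA on other transcripts cannot be told apart in this design.

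Median signals of the arrays lay between 72.3 and 79.97 on a scale on which every array has a trimmed mean of 500.003, and precision is limited by the number of arrays. Tardbp itself read 2257, 2249 and 1836 after TDP-43 siRNA, against 3748, 3940 and 3699 with control siRNA. On this brightest probe set it fell by 0.85 on the log2 scale (SE 0.08, limma adjusted p = 0.00175). Its other probe sets lay between -1.41 and -0.86, and the groups were apart on all 5. Control replicate 3 stood apart from its group: its mean correlation was 0.9891 with the TDP-43 siRNA arrays and 0.9886 with the other control arrays, and no other array lay closer to the opposite group. For Ldha, the lactate dehydrogenase of glycolysis, signals were 4367, 4353 and 4547 on the TDP-43 siRNA arrays, against 1829, 1884 and 4780 on control replicates 1, 2 and 3. The main results are also given without it, beside the by-array values of the members. All 7 beta cell markers with a probe set passed the filter, with summed signals of 72820 to 79394 after TDP-43 siRNA and 73214 to 76598 with control siRNA. The 8 markers of other islet cells (4 past the filter) summed to 29509 to 32338 after TDP-43 siRNA, against 32066 to 34350 with control siRNA. Most of this was Ttr and Gcg, while Ghrl, Hhex, Ppy and Sst did not pass the filter. Ttr read 20776 to 22791 after TDP-43 siRNA and 21621 to 23853 with control siRNA. Gcg read 7735 to 8761 after TDP-43 siRNA and 7345 to 10654 with control siRNA. The 8 markers of acinar and duct cells (5 past the filter) summed to 5446 to 6541 after TDP-43 siRNA, against 5974 to 6647 with control siRNA. Most of this was Krt7, at 4821 to 5976 after TDP-43 siRNA and 5349 to 6108 with control siRNA. Cpa1, Krt19 and Sox9 did not pass the filter. For the 8 markers of fibroblasts, endothelium and immune cells (3 past the filter) the sums were 231 to 281 after TDP-43 siRNA, against 240 to 340 with control siRNA. By limma over all genes 0 genes of these marker lists changed, none was listed at 0, and their part in the results was not tested. As a measure of RNA quality, the 3' minus 5' log2 signal of the control probe sets differed by 0.02 between groups for Gapdh (two-sided exact permutation p = 0.4) and by -0.03 for b-actin (p = 0.2 by the same exact test), where 0.1 is the smallest p that 3 arrays against 3 allow.

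Proteasome transcripts lay close to their control level after TDP-43 siRNA. Differences (log2 of signal plus 12, TDP-43 siRNA minus control siRNA) ran from -0.32 for Psme3 to 0.02 for Psmb1, and 42 of the 45 measured members, 93.3%, were within 0.2 of 0, against 76.6% of all 12614 genes tested. Members were also brighter, with a median signal of 3568 against 599 for all genes, and their median SE was 0.07 against 0.10. The part of signal level in this narrower spread was not tested. Small differences below 0 prevailed: 37 members lay below 0 and 8 above, 82.2% below against 45.1% of all genes. With each array left out in turn, 30 to 42 of the 45 lay below 0, fewest without control replicate 1 and most without control replicate 3. The median was -0.06 for the members and 0.02 for all genes. Members are read on the same 6 arrays, so their directions are not independent of one another.

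By limma over all genes, with an adjusted p below 0.05, 0 of the 45 members changed, where 0.745% of all genes did. The smallest limma adjusted p of a member was 0.197, for Psmg3. At an unadjusted p below 0.05 there were 5 members lower (Psma5, Psma7, Psmd13, Psme3 and Psmg3), which is 11.1% against 5.86% of all genes. There were 0 higher, against 6.71% of all genes. All 3 TDP-43 siRNA arrays lay below all 3 control arrays for 6 members, 13.3% against 8.31% of all genes, and above them for 0 members, against 9.98%. A member's difference had a median SE of 0.07, and its 95% confidence interval reached 0.16 to either side at the median, against 0.23 for all genes. In whole-culture RNA, fewer cells of a kind and less RNA per cell cannot be told apart.

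**Figure D1:**
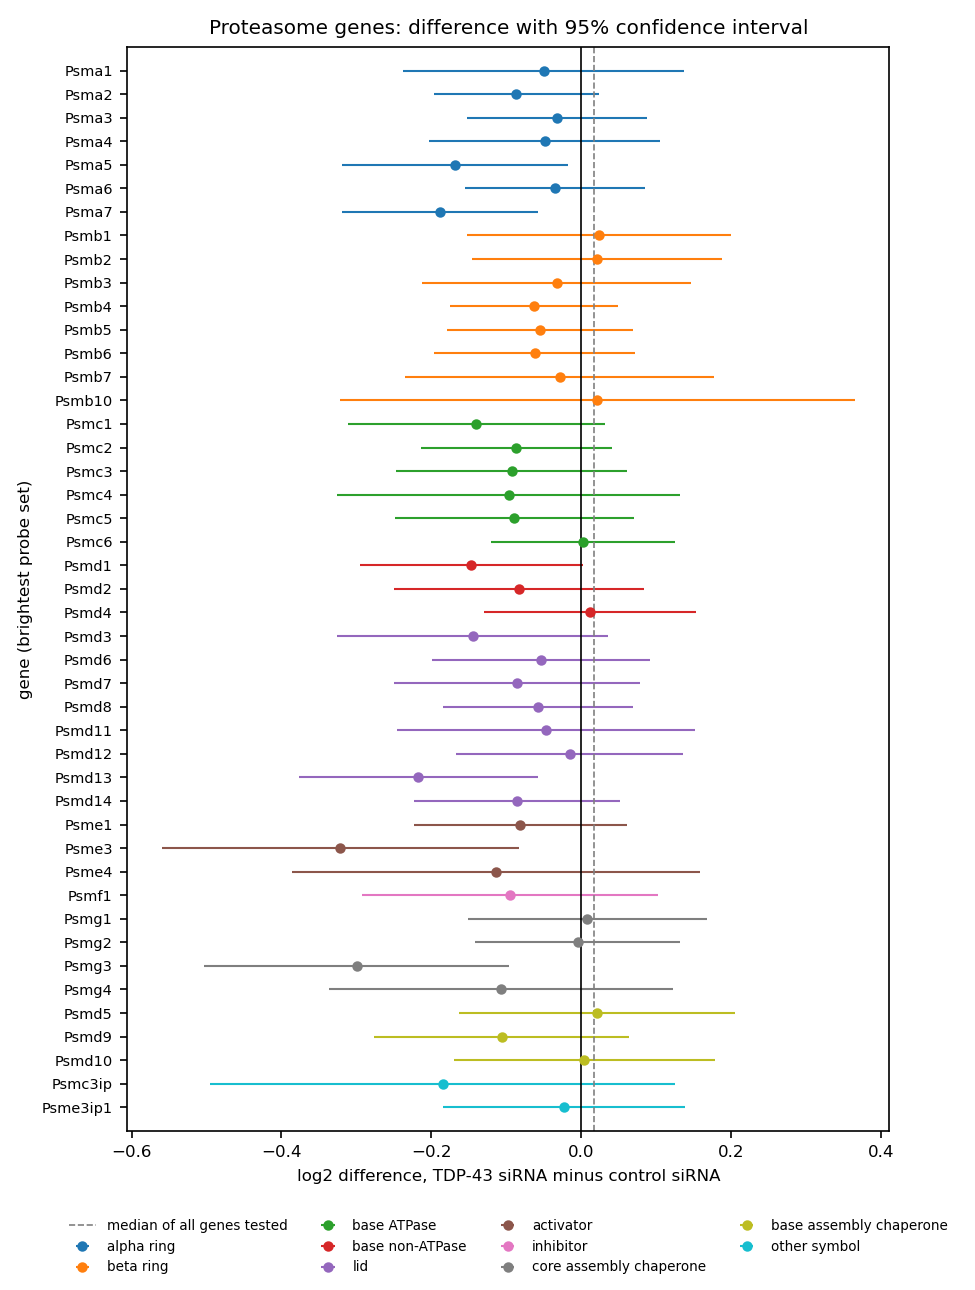
Each point is the log2 difference, TDP-43 siRNA minus control siRNA, of 1 of the 45 measured members on its brightest probe set, with its 95% confidence interval from limma, grouped by subcomplex. Most points lie just left of 0, the lowest is Psme3 at -0.32 and the highest Psmb1 at 0.02.

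Subcomplexes differed little in their medians. The core particle, with 15 measured genes, had a median of -0.05, and the regulatory particle, with 17, a median of -0.09. For the 32 subunits of both together it was -0.06. No subcomplex held a member that passed, and the differences between subcomplexes were not tested.

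The alpha ring, the gate of the core particle, had all 7 measured genes below 0, with a median of -0.05. Psma7 read 4675, 4697 and 4434 after TDP-43 siRNA, against 5389, 5423 and 4935 with control siRNA. The highest TDP-43 siRNA array was still under the lowest control array, replicate 3. The mean was 4602 ± 146 after TDP-43 siRNA and 5249 ± 272 with control siRNA (SD, n = 3 each), or 87.8% of the control level. Its difference of -0.19 (SE 0.06, limma adjusted p = 0.207) had a 95% confidence interval of -0.32 to -0.06, and a second probe set of Psma7 was at -0.22. Psma5 read 6735, 6995 and 6150 after TDP-43 siRNA, against 7388, 7973 and 6983 with control siRNA. Here the groups overlapped, since TDP-43 siRNA replicate 2 was above control replicate 3. The difference was -0.17 (SE 0.07, limma adjusted p = 0.339). The second probe set of Psma5 was at -0.03, and the mean of both was at -0.10.

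Psma2 showed a smaller gap with no overlap. Its signals were 5991, 6069 and 5910 after TDP-43 siRNA, against 6449, 6458 and 6182 with control siRNA, a difference of -0.09 (SE 0.05, limma adjusted p = 0.508). The other alpha genes, Psma1, Psma3, Psma4 and Psma6, lay between -0.05 and -0.03, and their groups overlapped. Psma8, an alpha subunit known from the testis, did not pass the filter, with signals of 17.0, 3.14 and 1.86 after TDP-43 siRNA and 7.64, 4.30 and 2.89 with control siRNA.

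The beta ring, which carries the protease sites, was closer to 0, with a median of -0.03, 5 of 8 genes below 0, and overlapping groups for all 8. Psmb5, the chymotrypsin-like site, read 4757, 5029 and 4831 after TDP-43 siRNA, against 5297, 5012 and 4882 with control siRNA. Only control replicate 1 stood above all TDP-43 siRNA arrays. Its difference of -0.05 (SE 0.06, limma adjusted p = 0.743) had a 95% confidence interval from -0.18 to 0.07. Psmb6, the caspase-like site, read 3780, 3941 and 4088 after TDP-43 siRNA, against 4312, 4099 and 3922 with control siRNA, a difference of -0.06 (SE 0.06, limma adjusted p = 0.729). Psmb7, the trypsin-like site, was at -0.03 (95% confidence interval from -0.23 to 0.18), and its highest array was TDP-43 siRNA replicate 2 at 5428.

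Psmb4, a structural beta subunit, had the smallest p of the ring. It read 8476, 8909 and 8873 after TDP-43 siRNA, against 9537, 8883 and 9014 with control siRNA, a difference of -0.06 (SE 0.05, limma adjusted p = 0.667). Psmb3 was at -0.03, and Psmb1, Psmb2 and Psmb10 were each at 0.02. Psmb10, the inducible counterpart of Psmb7, had the widest interval of the measured members, from -0.32 to 0.36. Psmb11, a catalytic subunit known from the thymus, did not pass the filter, with signals of 29.9, 4.81 and 27.9 after TDP-43 siRNA and 30.4, 33.4 and 6.73 with control siRNA.

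The 6 ATPases of the base, which unfold substrates and thread them into the core, had a median of -0.09, with 5 below 0. On the brightest probe sets all groups overlapped. Psmc1 read 2604, 2534 and 2923 after TDP-43 siRNA, against 3059, 3092 and 2730 with control siRNA. Control replicate 3 was lower than TDP-43 siRNA replicate 3, and the other control arrays lay above all TDP-43 siRNA arrays. The difference was -0.14 (SE 0.08, limma adjusted p = 0.496). Psmc2 read 9269, 9259 and 8823 after TDP-43 siRNA, against 9624, 10348 and 9103 with control siRNA, a difference of -0.09 (SE 0.06, limma adjusted p = 0.583). On a dimmer probe set of Psmc2, at -0.08, the groups were apart. Psmc3 read 3142, 3183 and 3094 after TDP-43 siRNA, against 3548, 3478 and 3043 with control siRNA, also at -0.09 (SE 0.07, limma adjusted p = 0.637). For both genes, control replicate 3 lay among or below the TDP-43 siRNA arrays. Psmc4 was at -0.10, Psmc5 at -0.09 and Psmc6 at 0.00.

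Of the 3 other base subunits that the symbol rule took, the scaffold Psmd1 was lowest. It read 3943, 4078 and 3996 after TDP-43 siRNA, against 4709, 4577 and 4047 with control siRNA. The groups overlapped through control replicate 3 alone. The difference was -0.15 (SE 0.07, limma adjusted p = 0.400). Psmd2, the other scaffold, read 3946, 4496 and 4845 after TDP-43 siRNA, against 4664, 4580 and 4785 with control siRNA, a difference of -0.08 (SE 0.07, limma adjusted p = 0.706). Psmd4, a ubiquitin receptor, read 2621, 2719 and 2455 after TDP-43 siRNA, against 2643, 2587 and 2499 with control siRNA. Its difference of 0.01 had a 95% confidence interval from -0.13 to 0.15 (limma adjusted p = 0.964). Its second probe set was at -0.12, with overlapping groups.

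All 8 lid genes that the symbol rule took lay below 0, with a median of -0.07. Psmd13, a structural lid subunit, read 1649, 1515 and 1576 after TDP-43 siRNA, against 1847, 1946 and 1726 with control siRNA. All TDP-43 siRNA arrays were below all control arrays. The mean was 1580 ± 66.9 after TDP-43 siRNA and 1840 ± 110 with control siRNA (SD, n = 3 each). The difference was -0.22 (SE 0.07, limma adjusted p = 0.231), and its 95% confidence interval was -0.38 to -0.06. Its 3 dimmer probe sets were at -0.09, -0.24 and 0.33, and the mean over all 4 was at -0.055 (limma adjusted p = 0.845). Psmd3 read 1646, 1840 and 1834 after TDP-43 siRNA, against 2150, 1924 and 1819 with control siRNA, a difference of -0.15 (SE 0.08, limma adjusted p = 0.504). Psmd14, the deubiquitinase of the lid, read 4793, 4860 and 4588 after TDP-43 siRNA, against 4835, 5424 and 4874 with control siRNA, a difference of -0.09 (SE 0.06, limma adjusted p = 0.617). The groups of Psmd3 and Psmd14 overlapped. Psmd6, Psmd7, Psmd8, Psmd11 and Psmd12 lay between -0.09 and -0.02.

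The activators, which cap the core in place of the regulatory particle, had a median of -0.11 over 3 measured genes. Psme3, the nuclear activator PA28 gamma, read 684, 675 and 560 after TDP-43 siRNA, against 866, 823 and 715 with control siRNA. The groups were apart, and replicate 3 was the lowest array of each. Its difference of -0.32 (SE 0.11, limma adjusted p = 0.236, 95% confidence interval -0.56 to -0.08) was not shared by its second probe set, described further on. Psme1, PA28 alpha, read 1784, 1670 and 1782 after TDP-43 siRNA, against 1816, 1836 and 1887 with control siRNA. The groups were apart by a narrow margin, and the difference was -0.08 (SE 0.06, limma adjusted p = 0.658). Psme4, the activator PA200, read 4630, 4647 and 3739 after TDP-43 siRNA, against 5597, 3991 and 4563 with control siRNA, with wide overlap and a difference of -0.11 (SE 0.12, limma adjusted p = 0.761). Psme2, the partner of Psme1, had no probe set naming it alone and was not measured. Psmf1, the inhibitor PI31, read 882, 903 and 1050 after TDP-43 siRNA, against 1062, 954 and 1008 with control siRNA, a difference of -0.09 (SE 0.09, limma adjusted p = 0.716) with overlapping groups. Dimmer probe sets of Psmf1 were at -0.18, -0.10 and 0.06, with the groups apart for the first of these.

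The core assembly chaperones varied most among themselves, with an SD of 0.14 over their 4 differences. Psmg3, which helps build the alpha ring, read 737, 840 and 831 after TDP-43 siRNA, against 1088, 970 and 916 with control siRNA. All TDP-43 siRNA arrays were below all control arrays. The mean was 803 ± 57.1 after TDP-43 siRNA and 991 ± 88.2 with control siRNA (SD, n = 3 each), or 81.2% of the control level. The difference was -0.30 (SE 0.09, limma adjusted p = 0.197), and its 95% confidence interval was -0.50 to -0.10. Psmg4 read 764, 773 and 622 after TDP-43 siRNA, against 774, 826 and 720 with control siRNA, a difference of -0.11 (SE 0.10, limma adjusted p = 0.725). Psmg1 read 1566, 1486 and 1613 after TDP-43 siRNA, against 1647, 1480 and 1515 with control siRNA, a difference of 0.01 (SE 0.07, limma adjusted p = 0.980), and Psmg2 was at -0.00. The groups of these 3 genes overlapped.

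Of the base assembly chaperones, Psmd9 read 942, 988 and 930 after TDP-43 siRNA, against 1049, 959 and 1075 with control siRNA, a difference of -0.11 (SE 0.08, limma adjusted p = 0.619). Psmd5 read 1671, 1965 and 1783 after TDP-43 siRNA, against 1923, 1670 and 1745 with control siRNA, at 0.02 (SE 0.08, limma adjusted p = 0.947). Psmd10, the oncoprotein gankyrin, read 788, 718 and 793 after TDP-43 siRNA, against 769, 745 and 776 with control siRNA, at 0.00 (SE 0.08, limma adjusted p = 0.992). All of these groups overlapped. The symbol rule also took in a pair of genes that are not proteasome subunits. Psmc3ip, a meiotic recombination factor, read 1115, 1031 and 813 after TDP-43 siRNA, against 1248, 1201 and 921 with control siRNA, a difference of -0.18 (SE 0.14, limma adjusted p = 0.641). Psme3ip1, a partner of Psme3, read 1063, 1130 and 1148 after TDP-43 siRNA, against 1171, 1081 and 1144 with control siRNA, at -0.02 (SE 0.07, limma adjusted p = 0.932). Both overlapped between groups.

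**Figure D2:**
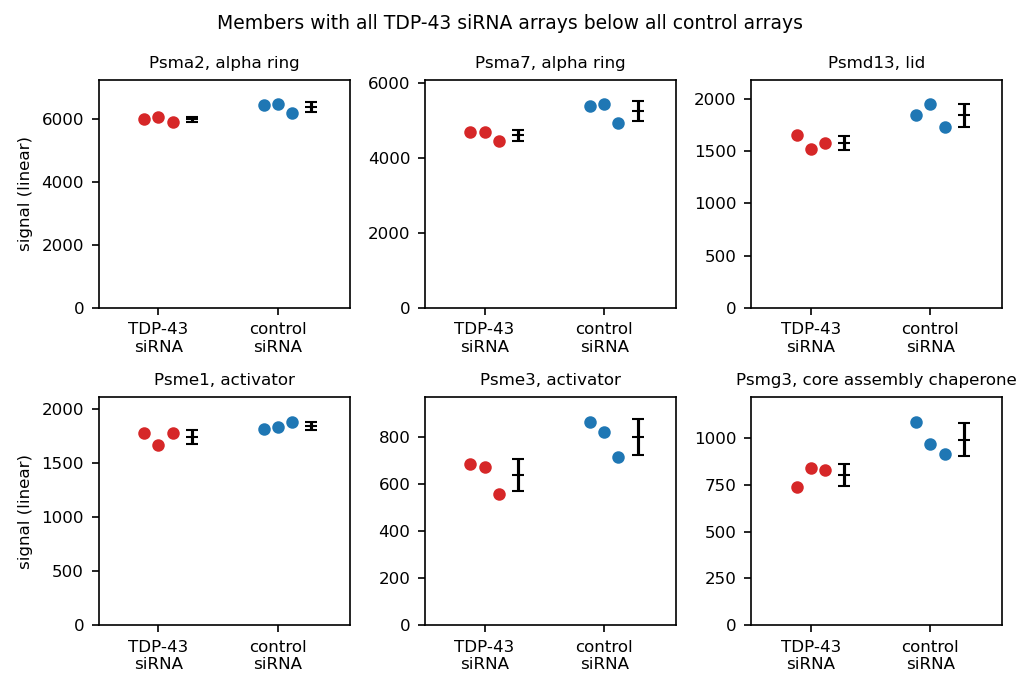
Points are the signals of single arrays for the 6 members whose groups did not overlap, TDP-43 siRNA at the left of each pair and control siRNA at the right, with the group mean and SD in black. Each panel has its own linear axis from 0, and in all 6 the TDP-43 siRNA arrays lie below the control arrays, by the widest margin relative to the signal for Psmg3 and the narrowest for Psme1.

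The start-site windows of these 6 members are shown because their transcripts are the ones whose groups were apart. Each line gives 80 bases before and 20 from the annotated start, 5' to 3' along the gene, from RefSeq on GRCm38.p6. Capitals mark a match, on either strand, to CCGGAAG (letters of a site of the ETS factor family), CCAAT (NF-Y) or TGACNNNGC (the core of the antioxidant response element, which NRF1 also binds). On the other strand CCGGAAG reads CTTCCGG and CCAAT reads ATTGG. Matches of different motifs may overlap.
Psma7, chr2:180042445-180042544, minus strand: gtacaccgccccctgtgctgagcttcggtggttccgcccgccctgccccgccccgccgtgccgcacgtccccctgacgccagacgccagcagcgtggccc
Psma2, chr13:14613162-14613261, plus strand: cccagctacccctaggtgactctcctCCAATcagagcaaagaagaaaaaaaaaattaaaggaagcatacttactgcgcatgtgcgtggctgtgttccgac
Psmd13, chr7:140882314-140882413, plus strand: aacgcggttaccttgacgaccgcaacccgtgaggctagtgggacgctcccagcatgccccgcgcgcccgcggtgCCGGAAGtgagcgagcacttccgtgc
Psme3, chr11:101316133-101316232, plus strand: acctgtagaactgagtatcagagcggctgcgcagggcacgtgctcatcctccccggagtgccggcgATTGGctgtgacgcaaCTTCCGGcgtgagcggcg
Psme1, chr14:55578414-55578513, plus strand: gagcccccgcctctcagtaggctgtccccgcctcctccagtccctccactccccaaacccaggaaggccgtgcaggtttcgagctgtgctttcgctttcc
Psmg3, chr5:139826875-139826974, minus strand: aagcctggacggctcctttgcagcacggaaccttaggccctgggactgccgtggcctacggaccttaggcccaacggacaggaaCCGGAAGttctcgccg
CCGGAAG stood in the windows of Psmd13, Psme3 and Psmg3. CCAAT stood in those of Psma2 and Psme3. None of the motifs was found in the windows printed for Psma7 and Psme1, which says only that these letters are not there.

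Of the 45 measured members, 38 had a RefSeq promoter of 250 bases before to 50 after a start, 41 in all. CCGGAAG was in 17 of the 41, or 41.5%, against 8.86% of all 32851 promoters in the table. Within 50 bases of the start it was in 12, or 29.3%, against 5.21%. CCAAT was in 34.1% of the members' promoters, against 37.4% of all promoters, and within 50 bases of the start in 24.4%, against 13.6%. TGACNNNGC was in 14.6%, against 12.4%, and within 50 bases of the start in 9.76%, against 4.78%. The median difference after TDP-43 siRNA was -0.07 both for the 16 members with CCGGAAG and for the 22 without it. For CCAAT it was -0.07 with and -0.07 without, and for TGACNNNGC it was -0.06 with and -0.08 without. These matches are descriptions of the sequence and were not tested for binding. The promoters of the whole table were not limited to genes past the filter or matched to the members by signal.

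The small shift below 0 was not even across the control arrays. As deviations from each gene's mean over the 6 arrays, the members averaged -0.06, -0.02 and -0.04 on the TDP-43 siRNA arrays, against 0.10, 0.04 and -0.03 on control replicates 1, 2 and 3. On this average over all members, control replicate 3 thus lay among the TDP-43 siRNA arrays. For the 32 subunits of the core and regulatory particles it was at -0.05, against -0.06, -0.02 and -0.02 on the TDP-43 siRNA arrays. For the 13 other members it was at 0.01, above the TDP-43 siRNA arrays at -0.04, -0.02 and -0.08. The mean over TDP-43 siRNA arrays was below control replicate 1 for 45 of 45 members, below control replicate 2 for 32 and below control replicate 3 for 24. Over all genes these shares were 44.7%, 48.5% and 48.8%. The median of the members' TDP-43 siRNA mean minus the control array was -0.12, -0.06 and -0.00 for control replicates 1, 2 and 3.

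Control replicate 1 was the highest of the 6 arrays for 21 members, 46.7% against 16.2% of all genes. Among the TDP-43 siRNA arrays, replicate 1 was the lowest of the 6 for 17 members, 37.8% against 14.2% of all genes. Without control replicate 3, 0 members passed, where 264 of 12614 genes did. The smallest limma adjusted p of a member was 0.0759, for Psma7. At an unadjusted p below 0.05, 12 members, 26.7%, were lower, against 7.59% of all genes. Members below 0 numbered 42. In that comparison the groups were apart lower for 20 members, 44.4% against 15.3% of all genes, and the members' median was -0.09. Psmd1 was at -0.21 without control replicate 3 (limma adjusted p = 0.0939) and Psmc1 at -0.20 (limma adjusted p = 0.224). The medians without this array were -0.11 for the alpha ring, -0.14 for the base ATPases and -0.11 for the lid.

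Leaving out control replicate 1 instead gave fewer members below 0. Then 30 members lay below 0, or 66.7% against 47.0% of all genes, and 3 were lower at an unadjusted p below 0.05, or 6.67% against 4.15% of all genes. By limma 0 members passed, where 32 of 12614 genes did, and the smallest limma adjusted p of a member was 0.518, for Psmd13. Medians were then -0.055 for the alpha ring, 0.026 for the beta ring, -0.064 for the base ATPases and -0.055 for the lid. Without both arrays numbered 3, which was tried after seeing the data, 0 members passed, where 226 of 12614 genes did. The groups were then apart lower for 26 members (57.8% against 20.2% of all genes), and the members' median was -0.09. The alpha ring had a median of -0.12 without both arrays numbered 3. Fewer arrays make groups easier to separate, and the shares over all genes rose too. Control replicate 3 was also the lowest control array for the members on average. Leaving it out thus favours groups apart lower among them, which the shares over all genes do not correct for. The cause of the pattern by array was not tested.

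**Figure D3:**
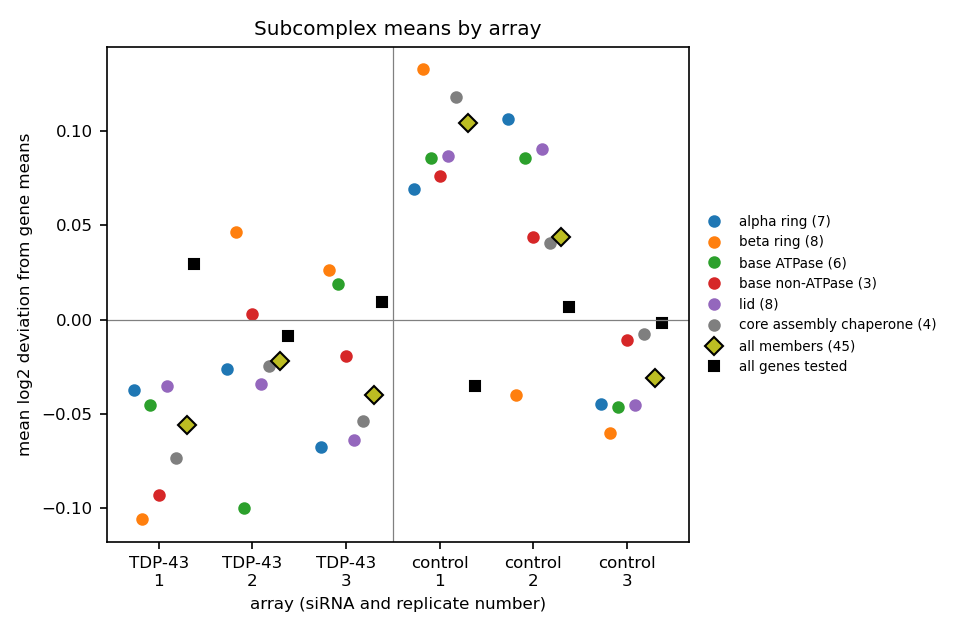
Points give, for 6 of the subcomplexes, for all 45 members and for all genes tested, the mean deviation on each array from each gene's mean over the 6 arrays, on the log2 scale, with the TDP-43 siRNA arrays left of the control arrays. For all members, control replicate 1 lies highest, at 0.10, and control replicate 3, at -0.03, lies among the TDP-43 siRNA arrays.

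**Figure D4:**
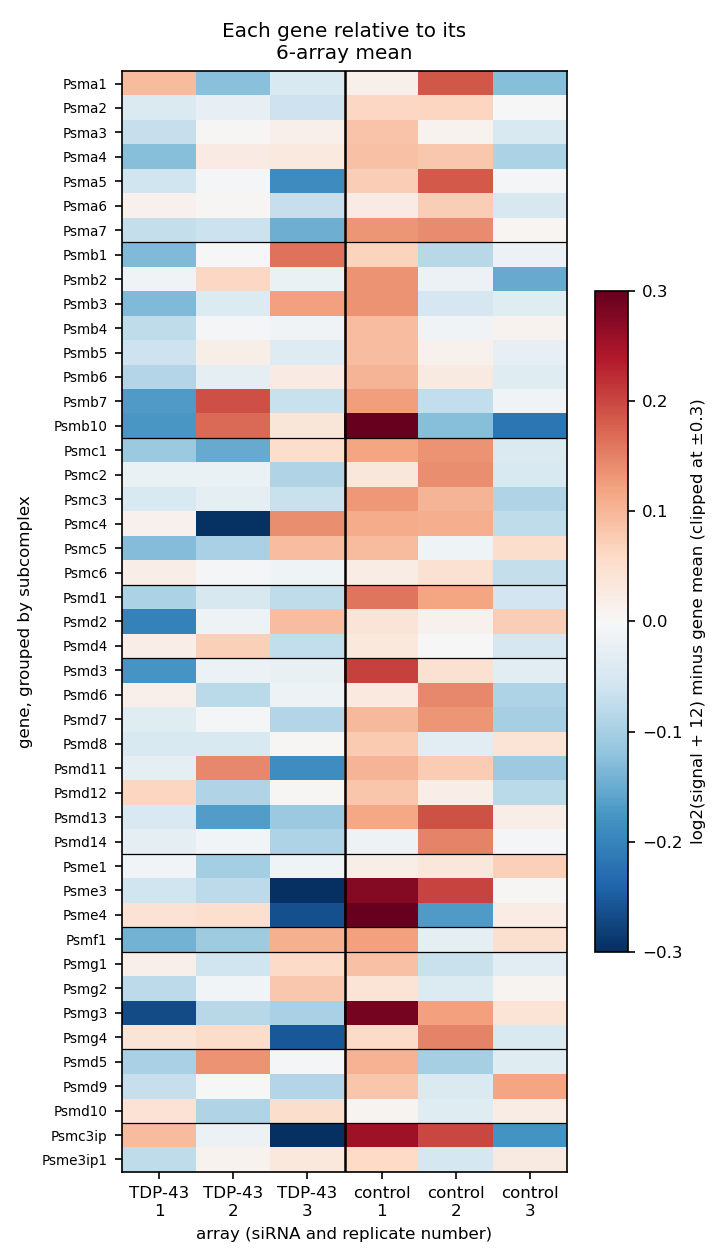
The colour of each cell is the deviation of 1 member on 1 array from its mean over the 6 arrays (log2, colours clipped at the ends of the scale), with the TDP-43 siRNA arrays in the left columns and members in rows by subcomplex. The column of control replicate 1 is above the gene's mean in most rows, and that of control replicate 3 shows both directions.

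Proteasome genes are bright on these arrays. With the genes tested ranked by mean signal into 10 equal bins, 22 of the 45 members were in the brightest bin and 9 in the next. The median difference of all genes in the brightest bin was -0.00, with 51.9% below 0, and in the dimmest bins, 1 and 2, it was 0.05 and 0.07. Direction thus moved with signal level over all genes, and its part in the members' shift was not tested.

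Probe sets of the same gene sometimes differed, and this was the one place where a proteasome transcript passed. Of 84 single-gene probe sets of members past the filter, 66 lay below 0, or 78.6% against 47.1% of all such probe sets. Over all 23426 such probe sets, 1 of the members' passed, where 0.662% of all did. It was probe set 1456059_at of Psmd11, a lid subunit, at 514, 568 and 418 after TDP-43 siRNA, against 736, 766 and 852 with control siRNA. It fell by 0.65 (SE 0.12, limma adjusted p = 0.0492), with the groups apart and control replicate 3 the highest array. The brightest probe set of Psmd11, 1437080_s_at, whose suffix marks probes that can read more than 1 transcript, read 4341, 4889 and 3887 after TDP-43 siRNA, against 4751, 4667 and 4102 with control siRNA, at -0.05. The other 3 probe sets of Psmd11 were at -0.06, 0.01 and 0.05. In 17 alternative settings the adjusted p of 1456059_at ran from 0.0398 to 0.178, and it passed in 3 of them and in none of the 6 that left out 1 array. The difference of its change from that of the brightest probe set was -0.60 (SE 0.15, limma adjusted p = 0.386 over 10812 pairs).

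Psme3 had probe sets whose differences had opposite signs. While 1418079_at, the brightest, was at -0.32, the dimmer 1418078_at read 199, 222 and 227 after TDP-43 siRNA, against 180, 167 and 144 with control siRNA. All TDP-43 siRNA arrays were above all control arrays, and the difference was 0.38 (SE 0.13, limma adjusted p = 0.306). The differences of these probe sets were 0.70 apart (SE 0.14, limma adjusted p = 0.334 over pairs). With the mean of its probe sets, Psme3 was at 0.028. The dimmer probe sets of Psmd11 and Psme3 were singled out with their values known. Among 39 pairs of member probe sets, 0 passed, where 0% of all pairs passed. At an unadjusted p below 0.05 there were 2 member pairs, those of Psmd11 and Psme3, or 5.13%, against 755 of all pairs, or 6.98%. The widest of the other differences belonged to dim probe sets. One of Psmb1 was at 1.04, with signals of 312, 94.7 and 273 after TDP-43 siRNA, against 157, 69.8 and 70.7 with control siRNA (limma adjusted p = 0.372). One of Psma6 was at -0.86, with signals of 150, 21.9 and 165 after TDP-43 siRNA, against 148, 189 and 167 with control siRNA (limma adjusted p = 0.571). In both, TDP-43 siRNA replicate 2 was far below the other TDP-43 siRNA arrays, and the groups overlapped. The parts of the transcripts that these probe sets read were not used here.

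**Figure D5:**
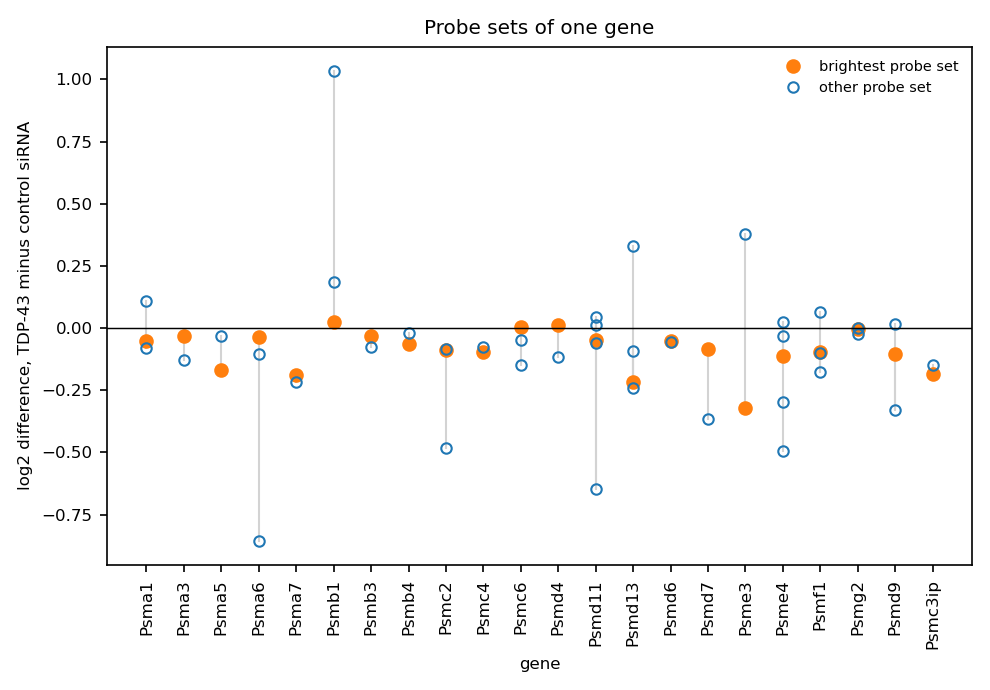
Each point is the log2 difference, TDP-43 siRNA minus control siRNA, of 1 probe set of the 22 members with several past the filter, filled for the brightest and open for the others, with a grey line joining the probe sets of a gene. The farthest points from 0 are dim probe sets of Psmb1 at 1.04 and Psma6 at -0.86. For Psmd11 1 open point lies at -0.65 below the rest, and for Psme3 the open point is at 0.38 and the filled one at -0.32.

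A list of 34 further genes was read beside the members, of which 25 were measured. Those measured held 3 subunits that the symbol rule leaves out, Psmb8 at -0.17, Psmb9 at -0.07 and Sem1, a small subunit of the regulatory particle, at -0.04. The other 31 held Adrm1, a further subunit, which was not measured. The rest work with the proteasome, among them maturation and shuttle factors, transcription factors, ubiquitin supply and the p97 system. Of these 31, 22 were measured. By limma 0 of the 22 passed in either direction. At an unadjusted p below 0.05 there was 1 lower and 1 higher, or 4.55% each, against 5.86% of all genes lower and 6.71% higher. Their median was 0.04, with 8 below 0, against a median of 0.02 for all genes. Pomp, the maturation factor of the core particle, read 4687, 4817 and 4633 after TDP-43 siRNA, against 5657, 5202 and 5010 with control siRNA. The groups were apart and the difference was -0.16 (SE 0.06, limma adjusted p = 0.284). Ube3c, a ubiquitin ligase bound to the proteasome, read 2405, 2422 and 2456 after TDP-43 siRNA, against 2164, 2147 and 2212 with control siRNA, a difference of 0.16 (SE 0.06, limma adjusted p = 0.284). Its groups were apart too, but with the mean of its probe sets it was at -0.032.

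Vcp, the p97 unfoldase, was at -0.12 (limma adjusted p = 0.461) with the groups apart. Ngly1, which helps activate NRF1, was at 0.07 (limma adjusted p = 0.725), also with the groups apart. Of the 22 measured genes that work with the proteasome, groups were apart lower for 2 and higher for 2, or 9.09% each. The shares over all genes were 8.31% lower and 9.98% higher. Nfe2l1, the gene of NRF1, a transcription factor of proteasome genes, read 1806, 1845 and 2222 after TDP-43 siRNA, against 1699, 1545 and 2052 with control siRNA. The groups overlapped, and the difference of 0.15 (SE 0.11, limma adjusted p = 0.637) had a 95% confidence interval from -0.10 to 0.41.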

How the data were processed

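MAS5 signal intensities were deposited by the authors for 45101 probe sets on 6 arrays; MAS5 is named in the submitters' processing notes, without a version in the sources used here. Values are linear, and with 2% trimmed at each end every array averaged 500.003. The platform annotation gave 34945 probe sets 1 gene, 932 several and 9160 none, beside 64 control probe sets. Symbols were updated through RefSeq (GRCm38.p6), where 34741 matched.

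Differences are of log2(signal + 12). Probe sets in the lowest 40% by mean log2 value were dropped, leaving 27022, of which 23426 had 1 gene. Each of the 12614 genes was read on its brightest probe set. TDP-43 siRNA and control siRNA arrays, grouped by the labels, were compared in limma 3.58.1 (R 4.3.3) with lmFit and trended eBayes, two-sided, with Benjamini-Hochberg adjustment at 0.05. Figures used matplotlib 3.10.9. Members, lists and tests were chosen with earlier results of these data known. Any member may be named. Signals of every array are given for members at an unadjusted p below 0.05 and for the 3 with the smallest p of each subcomplex.

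The main fit did not pair the arrays. Deviations from the group means correlated at -0.12, -0.14 and 0.24 for same-numbered arrays. TDP-43 siRNA replicate 1 with control replicate 2 was at 0.30, and TDP-43 siRNA replicate 2 with control replicate 1 at 0.23. The remaining correlations lay between -0.18 and -0.08. Deviations within a group are tied by its mean, so these values cannot settle whether arrays of different groups were paired. The alternatives changed the pseudocount (1 or 42), the filter (none, or the lowest 60% dropped), the scaling (quantile or median), the variance model (untrended, robust, weighted arrays), the summary of a gene (mean of its probe sets, or each alone), the replicate number (as a block) and the arrays used (each dropped once). A comparison without both arrays numbered 3 was added after seeing the data. The main fit of genes was tested on simulated data with known answers. The fits of probe sets, of probe set pairs and of the alternatives were not. The simulated noise was independent for each gene and array. Shifts that genes share on an array were thus not tested.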

Additional observations from a re-analysis of the deposited data

How the results depend on the processing

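Over 19 alternative settings the members' median stayed between -0.09 and -0.05, and no member changed except in the fit of single probe sets, where 1 did (Psmd11). The number of genes changed in all was 94 in the fit reported. It was 51 with no filter, 12 with no intensity trend, 163 with array weights, 155 with single probe sets, 226 without both arrays numbered 3, and 32 to 264 with each array left out in turn. Tardbp was at -0.85 with limma adjusted p = 0.0587 when the intensity trend was left out. Leaving out each array in turn put the median between -0.14 and -0.0026 for the base non-ATPase subunits, between -0.23 and -0.093 for the activators and between -0.11 and -0.036 for the alpha ring. Without both arrays numbered 3 the base non-ATPase median was -0.13 and the alpha ring median was -0.12. The beta ring median ranged from -0.066 to 0.028 over arrays left out. Among the 13 named genes followed through 247 alternatives, 244 values kept their side and direction and 3 turned: Psme3 (0.028) and Ube3c (-0.032) with the mean of probe sets, and the brightest probe set of Psmd11 (0.035) without TDP-43 siRNA replicate 3. Of the 45 members, 21 turned direction under at least 1 alternative and 24 under none, single probe sets aside, and at most 7 turned at once. The base assembly chaperone median, 0.0042 in the fit reported, ran from -0.041 to 0.0099 over all alternatives. With the replicate number as a block, 127 genes changed, 0 members did and 6 members were lower at an unadjusted p below 0.05, or 13.3% against 6.15% of all genes. The causes of these shifts were not tested. The number of members with groups apart lower was 6, or 13.3% against 8.31% of all genes. It ran from 4 with median centring (8.89% against 5.95%) to 26 without both arrays numbered 3 (57.8% against 20.2%). Signal near background limits Psma8 and Psmb11, which were left out by the filter.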
